A study of Rousettus aegyptiacus with 32 samples.

Results

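In the brain of the Egyptian fruit bat, *Rousettus aegyptiacus*, 100 numbered transcript models carried the clearest excess of poly(A) RNA-seq reads in the caudate and putamen over the cortex. They were chosen from 55974 models in the deposited tables, of which 55886 were shorter than 800 kb and could be ranked. Reads of a model are given as CPM, its share of a library's estimated reads scaled to 1000000. The score was the lowest CPM among the 4 striatal libraries plus 1, divided by the highest CPM among the 8 cortical libraries plus 1, and the models with the 100 highest scores were taken. The difference between striatum and cortex therefore selected the models. It is described here without a test.

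RNA came from bulk tissue of an adult female (bat 6) and an adult male (bat 7), with no treatment named in the labels, in a study of convergent evolution linked to vocal learning. The 6 regions were the caudate nucleus, the putamen, secondary auditory cortex (2A), the orofacial (ofM1) and wing (wM1) parts of primary motor cortex, and the premotor cortical area (PreM). Each region had 1 library per animal, so a region has n = 2 and sex cannot be told apart from animal. The 12 libraries held 40790810 to 76023989 estimated reads.

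As background, the caudate and putamen form the dorsal striatum, the main input station of the basal ganglia. Most striatal neurons are spiny projection neurons, which release the inhibitory transmitter GABA and respond to dopamine, whereas the main output neurons of cortex are pyramidal cells that release glutamate. The caudate is linked more with association areas of cortex and the putamen more with sensory and motor areas. The models are numbered (mRNA followed by a number), and 0 of the 100 numbers were found in the gene table of the species, so no model is given a gene name, function or sequence. For the same reason the labelled regions could not be checked against marker genes of striatal or cortical neurons. In bulk tissue, fewer cells of a type and less RNA per cell cannot be told apart.

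The 100 models together held 3.81% and 3.56% of the reads in the caudate of bats 6 and 7, and 3.08% and 3.24% in the putamen. In the 8 cortical libraries they held 0.274% to 0.394%. The median model was at 67.4 and 66.3 CPM in the caudate libraries and at 46.0 and 58.2 CPM in the putamen libraries. In cortex the median model lay between 3.31 CPM in 2A of bat 7 and 4.99 CPM in PreM of bat 7. The 5 models with the most reads carried 46.0% to 59.7% of the members' reads in each library, so the summed share rests mostly on a few models.

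**Figure D1:**
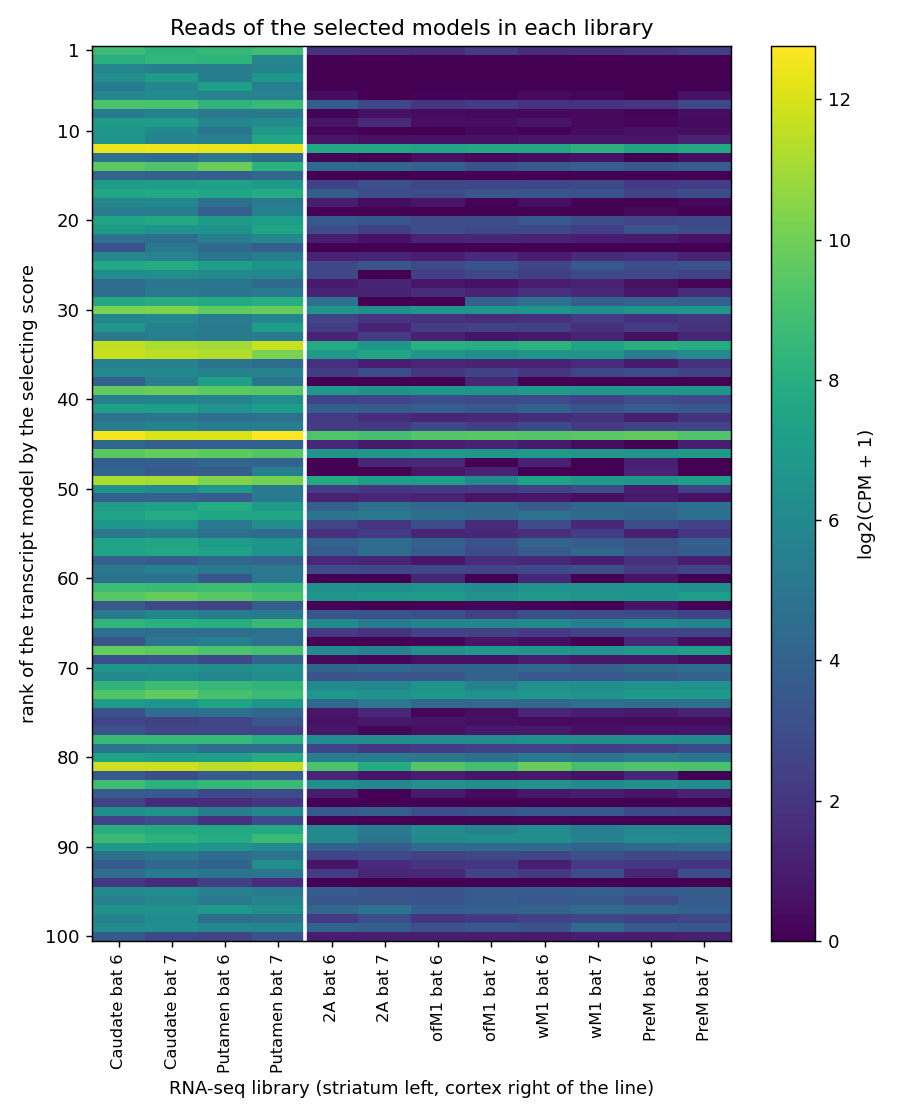
Log2(CPM + 1) of the 100 models (rows, by rank of the selecting score) in the 12 libraries (columns), with the 4 striatal libraries left of the white line and the 8 cortical ones right of it. Rows differ widely in level, and rows at 0 throughout cortex occur both near the top (rank 2) and far down the list (rank 85).

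The highest score belonged to mRNA43542, which had 425 and 318 CPM in the caudate of bats 6 and 7 and 358 and 463 CPM in the putamen. Its cortical values ran from 2.02 to 4.21 CPM, with a median of 2.46. Its lowest striatal value was thus far above its highest cortical one, and neither striatal region lay wholly above the other. The next, mRNA11732, had 259 and 338 CPM in caudate and 300 and 54.3 CPM in putamen, with no reads in any cortical library. Its putamen library of bat 7 stood far below the other 3.

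Further models at the top had no cortical reads at all. The third, mRNA17511, had 54.5, 41.3, 41.5 and 51.6 CPM in caudate of bats 6 and 7 and putamen of bats 6 and 7. The fourth, mRNA59902, had 74.9, 131, 40.8 and 105 CPM in the same order. In this model bat 7 was above bat 6 in both striatal regions. The fifth, mRNA2173, had 36.5, 59.1, 145 and 43.5 CPM, with the putamen of bat 6 well above the other 3.

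Ranks 6 to 8 had some cortical reads. The sixth, mRNA39868, had 58.8, 71.3, 48.8 and 48.9 CPM in the same order of striatal libraries, and 0 to 0.521 CPM in cortex. The seventh, mRNA22377, had 555, 554, 315 and 387 CPM, with both caudate libraries above both putamen libraries. Its cortical values had a median of 3.36 CPM and a highest value of 12.5 CPM in 2A of bat 6. The eighth, mRNA55455, had 36.2, 45.7, 32.7 and 35.1 CPM, and 0.0735 to 0.514 CPM in cortex.

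**Figure D2:**
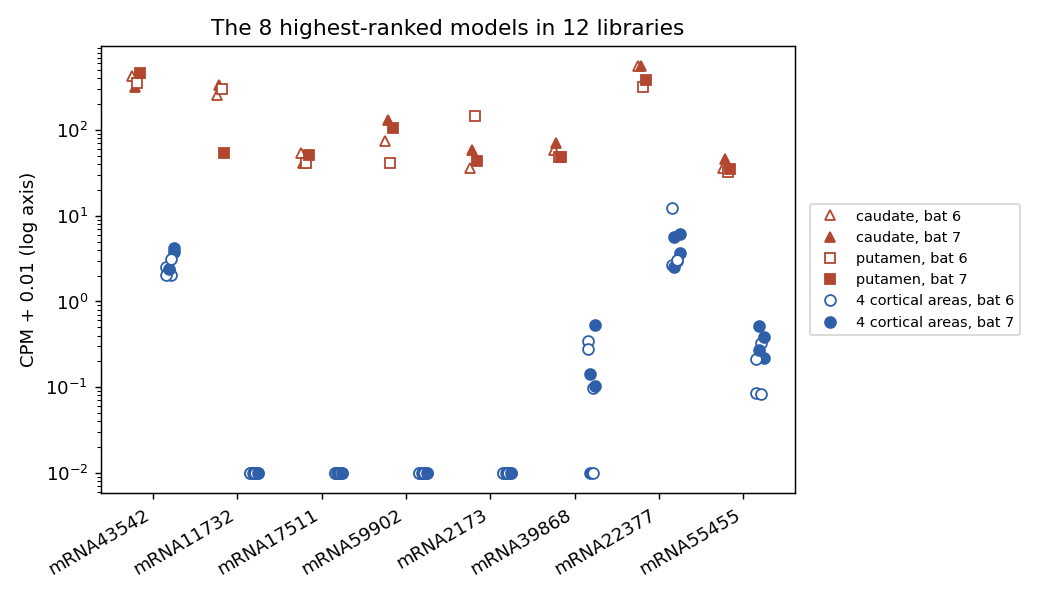
CPM of the 8 highest-ranked models in the 12 libraries, with 0.01 added and a log axis, so that points at the bottom are libraries with no reads. Striatal points (triangles and squares) lie above all cortical points (circles) in every model, which the selection requires, and 4 of the 8 models have all cortical points at the bottom.

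Over the list, 7 models had no reads in any of the 8 cortical libraries, 17 had none in some of them and 76 had reads in all 8. A count of 0 allows up to 3 reads, which is 0.0395 to 0.0735 CPM in the cortical libraries, and this covers counting error only. Besides the 4 given above, the models without cortical reads were mRNA2214, mRNA3082 and mRNA52128. They had lower striatal levels, of 13.0 to 19.6 CPM for mRNA2214, 8.28 to 34.9 CPM for mRNA3082 and 1.96 to 4.65 CPM for mRNA52128. For the 93 models with cortical reads, the mean of the striatal libraries was 3.99 to 840 times the mean of the cortical ones, with a median of 12.1 times.

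The scores ran from 61.1 down to 2.79, with a median of 4.77, and 20 models scored above 10 while 42 scored below 4. Just inside the threshold, mRNA8323 scored 2.80, with 56.7 CPM in its lowest striatal library and 19.6 CPM in its highest cortical one. The last member, mRNA23262, scored 2.79 with 5.04 and 1.16 CPM. Just outside were mRNA24094, at 9.75 and 2.85 CPM, and mRNA30744, at 47.6 and 16.5 CPM, both with a score of 2.79. The list therefore ends in a continuous run of scores. Without the putamen library of bat 7 or that of bat 6, 77 and 78 of the 100 remained among the highest 100. Ranking by the mean of each side in place of the lowest and highest library kept 32.

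Levels differed far more between models than between striatal libraries. The median over the 4 striatal libraries ran from 2.44 to 5369 CPM, with 7 models above 1000 CPM, 37 above 100 CPM and 9 below 10 CPM. The highest of these belonged to mRNA52025, at 5441 and 5617 CPM in caudate and 5297 and 4837 CPM in putamen, against 173 to 297 CPM in cortex. These 4 striatal values were the closest of any member, with the highest 1.16 times the lowest. Next came mRNA22993, at 5993, 4241, 4329 and 6953 CPM in caudate of bats 6 and 7 and putamen of bats 6 and 7, against 516 to 805 CPM in cortex. In this model the caudate of bat 6 and the putamen of bat 7 were high and the other 2 low.

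Per length, in the deposited TPM, the median over the striatal libraries ran from 0.132 for mRNA5707 to 2424 for mRNA52025, with a median of 18.6 over the members. The shortest member, mRNA59028, is 270 bases long in the length column of the files and had 32.3 to 42.9 CPM in striatum and 0.471 to 3.77 CPM in cortex. On the TPM scale it reached a striatal median of 1841, among the highest in the list. By comparison, mRNA52025, of 8781 bases, had striatal medians of 5369 CPM and 2424 TPM. TPM therefore did not follow CPM per base of the length column. How TPM was scaled in so short a model was not examined. The longest, mRNA7452, is 590271 bases long and had 92.3 and 85.7 CPM in caudate, 113 and 81.8 CPM in putamen and 13.3 to 28.4 CPM in cortex. The median length was 19568 bases, against 17562 for all 28713 models that passed a filter on low counts. Of the members, 23 were longer than 100 kb, against 10.9% of those models, and 37 were shorter than 10000 bases, against 35.0%. All 100 members passed the filter.

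Within the striatum the highest library of a member was a median of 1.73 times the lowest, and the ratio exceeded 2 in 38 members and 4 in 6. The largest ratio was 10.3, in mRNA24320, which had 14.4, 43.7, 149 and 30.2 CPM in caudate of bats 6 and 7 and putamen of bats 6 and 7. The lowest of the 4 was the putamen of bat 6 in 42 members, the putamen of bat 7 in 27, the caudate of bat 6 in 17 and that of bat 7 in 14. The highest was the caudate of bat 7 in 40 members. The putamen libraries were also the same-region pair that correlated least across models, at 0.719, against 0.917 for the caudate pair. The part of this in the members' spread was not tested.

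None of the 100 models was called different between caudate and putamen by edgeR's quasi-likelihood test with Benjamini-Hochberg adjustment over all 28713 models. Over all models, 0.16% were called higher in caudate and 0.0209% higher in putamen. At an unadjusted p under 0.05 there were 8 members (8%), against 6.71% of all models, a share near the background. The rule asks for reads in all 4 striatal libraries, so a model near 0 in 1 of them could not be a member. DESeq2, run as an alternative, called 4 members, against 8.77% of all models in either direction. Summing consecutive models of like length also gave 0 calls for the sums that hold a member (9 of 99 at an unadjusted p under 0.05, and 3 called by DESeq2). Over all sums edgeR called 0.105% and DESeq2 5.04%.

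The 2 members with the largest fitted differences in the same direction in both animals went opposite ways. For mRNA5735 the caudate had 11.9 and 19.0 CPM in bats 6 and 7 and the putamen 16.3 and 77.1 CPM. The groups overlapped and the putamen of bat 7 carried most of the difference, of -1.50 ± 0.86 (SE) in log2 caudate over putamen (adjusted p = 0.780). For mRNA37350 the caudate had 48.7 and 70.3 CPM and the putamen 22.4 and 25.6 CPM. Here the groups did not overlap, and the log2 difference was 1.33 ± 0.44 (SE, adjusted p = 0.571).

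The 4 members that DESeq2 called were chosen for mention after their values were seen. They were mRNA37350 and 3 others, each with caudate and putamen libraries that did not overlap. The caudate had 1189 and 1266 CPM of mRNA39696 and the putamen 787 and 882 CPM, a log2 difference of 0.58 ± 0.15 (SE, adjusted p = 0.383 by edgeR, 0.00107 by DESeq2). This was the smallest adjusted p of any member in edgeR. The caudate had 81.2 and 92.9 CPM of mRNA36836 and the putamen 41.9 and 61.3 CPM (adjusted p = 0.532 by edgeR, 0.00714 by DESeq2). The reverse held for mRNA24319, with 26.0 and 22.7 CPM in caudate and 43.1 and 68.1 CPM in putamen (adjusted p = 0.610 by edgeR, 0.00241 by DESeq2).

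As a description, 44 members had more CPM in caudate than in putamen in both bats, 23 only in bat 6, 20 only in bat 7 and 13 in neither. Of all 28713 models tested, 24.3% were above in both bats, and of the 13077 with at least the members' lowest striatal value of 1.96 CPM in every striatal library, 28.1%. The count depended on the scaling, with 40 on TMM-scaled and 34 on RLE-scaled library sizes, against 24.9% and 21.4% of all models. Both caudate libraries lay above both putamen libraries in 36 members, against 18.2% of all models, and the reverse held in 5 members, against 9.94%. Among the 13077 models with reads at that level the shares were 20.1% and 11.4%. On RLE-scaled library sizes the 2 counts were 27 and 11, against 16.3% and 11.1% of all models. The fitted log2 difference had a median of 0.20 over the members and of 0.0036 over all models, with members from -1.70 to 1.33. With RLE scaling the median was 0.096 over the members and -0.024 over all models.

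**Figure D3:**
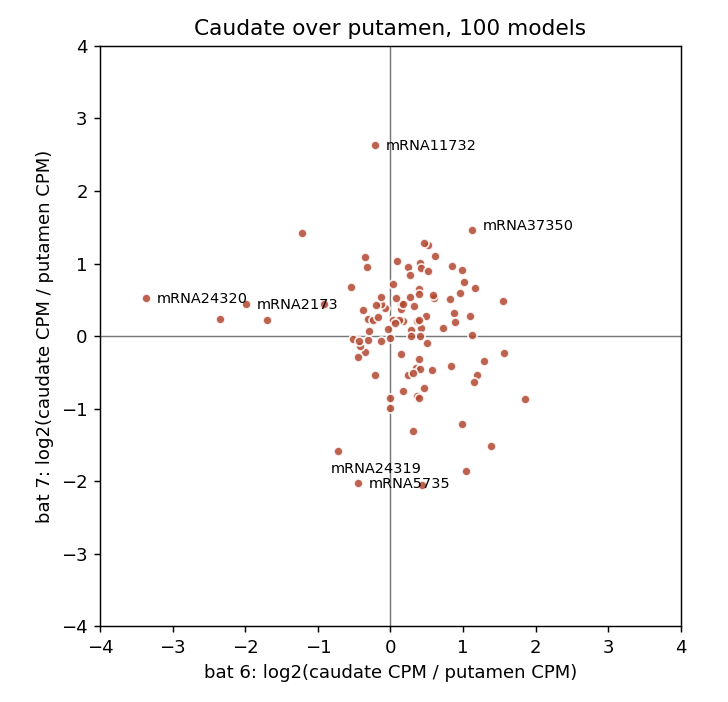
Log2 ratio of caudate to putamen CPM for each of the 100 models (points) in bat 6 (horizontal axis) and bat 7 (vertical axis). Points above and right of the 0 lines are the 44 models with caudate above putamen in both bats. In mRNA24320 and mRNA11732 the ratio is far from 0 in 1 animal and closer to 0 in the other.

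Between the cortical areas, no member was called different by edgeR. The members' median CPM over the cortical libraries had a median of 4.63 and a highest value of 654. Secondary auditory cortex against the 3 motor areas gave 0 of 100 (0.0383% of all models called in either direction), with 10 members at an unadjusted p under 0.05, against 4.16% of all models. DESeq2 called 6 members there, against 5.69% of all models. Premotor against primary motor cortex gave 0 (0.0348% of all models), with 4 members at an unadjusted p under 0.05, against 1.63% of all models. DESeq2 called 1 member, against 3.03% of all models. Orofacial against wing motor cortex gave 0 (0.0313%), with 3 members at an unadjusted p under 0.05, against 0.801% of all models. DESeq2 called 1 member, against 3.06% of all models. Among the 93 members with cortical reads, the highest cortical library was PreM of bat 6 in 18, 2A of bat 7 in 17, PreM of bat 7 in 15 and 2A of bat 6 in 12. It was a wM1 library of bat 6 or bat 7 in 11 each, ofM1 of bat 7 in 7 and ofM1 of bat 6 in 2.

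Among members at 1 CPM or more, those with the largest differences between areas were as follows. In 2A, mRNA22377 had 12.5 and 5.61 CPM, against 2.53 to 6.08 CPM in the 6 motor libraries, a log2 difference of 1.44 ± 0.30 (SE, adjusted p = 0.575). The 2A values of mRNA59028 were 1.30 and 3.77 CPM, against 0.471 to 1.56 CPM (1.38 ± 0.58, adjusted p = 1.00). In both, the 2A libraries differed from each other by more than 2 times and overlapped the motor range. Of the 6 members that DESeq2 called here, 4 were higher and 2 lower in 2A. The lowest DESeq2 adjusted p was that of mRNA3775, named after its values were seen. It had 68.3 and 49.2 CPM in 2A, against 92.4 to 143.8 CPM in the motor libraries, with no overlap. Its DESeq2 log2 difference was -0.87 ± 0.16 (SE, adjusted p = 4.8e-06 by DESeq2), and edgeR did not call it. Leaving out 2A of bat 6 leaves 1 library in 2A, so no calls are given from that fit. Its median log2 difference over all models was -0.19, against -0.019 with all libraries.

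In PreM, mRNA24319 had 0.874 and 0.530 CPM, against 1.09 to 1.55 CPM in the 4 primary motor libraries, with no overlap (log2 difference -0.95 ± 0.36, SE, adjusted p = 1.00). The PreM values of mRNA19263 were 43.3 and 65.5 CPM, against 81.8 to 105 CPM, also with no overlap (-0.84 ± 0.43, SE, adjusted p = 1.00). This model was among the most abundant members, at 3447, 2873, 2491 and 1179 CPM in caudate of bats 6 and 7 and putamen of bats 6 and 7. Between the motor fields, mRNA15253 had 1.47 and 1.74 CPM in ofM1 and 2.31 and 3.98 CPM in wM1 (-0.99 ± 0.58, SE, adjusted p = 1.00). For mRNA58996 the values were 1.64 and 4.54 CPM in ofM1 and 3.31 and 6.86 CPM in wM1, which overlap (-0.77 ± 0.83, SE, adjusted p = 1.00). The adjusted p-values are from edgeR.

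Between the animals edgeR called 0 of 100 members (0.0% of all models), with 5 at an unadjusted p under 0.05, which is 5% of the members against 5.03% of all models. DESeq2 called 3 members, against 6.71% of all models. The 6 regions of each bat stand in for replicates here, so these p-values do not measure a spread between animals. The number at an unadjusted p under 0.05 depended on the putamen. Without its library of bat 6 or bat 7 it was 13 and 14 members. Over all models it was then 3544 of 31286 and 3611 of 31500, against 1443 of 28713 with all libraries. Without any other single library it was 0 to 3 members. The cause was not tested. Bat 7 was above bat 6 in all 6 regions in 2 members and below it in 1, which is 3% of the members against 5.12% of all models. Of these, mRNA37350 had the larger difference, with 70.3 against 48.7 CPM in caudate, 25.6 against 22.4 CPM in putamen and 7.33 against 3.65 CPM in 2A. In ofM1 it had 3.52 against 2.73 CPM, in wM1 5.58 against 4.49 CPM and in PreM 5.51 against 4.26 CPM (log2 bat 7 over bat 6 of 0.45 ± 0.20, SE, adjusted p = 0.978). The other 2 were mRNA22368, above in bat 7 (0.30 ± 0.17, SE, adjusted p = 1.00), and mRNA57173, below (-0.19 ± 0.12, SE, adjusted p = 1.00).

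Neighbouring numbers were examined next, since Salmon divides the reads that match several similar transcripts among them by estimation. Whether neighbouring numbers are models of the same gene is not given in the files. Runs of consecutive numbers whose lengths differ by at most 10% held 28 of the members, and 72 members stood alone, while 38.0% of all models tested were in such runs. The runs added 35 models that are not members, of which 18 had no reads in any library and 13 could be tested. The numbers directly before and after the members gave 135 further models of other lengths, of which 74 could be tested. Reads shared with a member can move in these neighbours with the member's own, so their tests are not independent of the selection.

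Of the 13 like-length neighbours tested, edgeR called 1 higher in striatum and 0 lower, against 2.32% and 2.57% of all models. At an unadjusted p under 0.05 there were 6, against 18.7% of all models. DESeq2 called 5 in either direction, against 21.2% of all models, with 4 higher and 1 (mRNA2172) lower in striatum. Its log2 difference for mRNA41837, 1 of the 4, was 25.8, too large to be read as a fold. The one called by edgeR was mRNA24322, at 1.57 to 7.19 CPM in striatum. It had reads in only 1 cortical library, at 0.270 CPM (adjusted p = 0.0448 by edgeR, and 0.106 in the fit that blocks on the animal). The number called became 0 without any 1 of the caudate, 2A, ofM1 or PreM libraries of either bat or wM1 of bat 6, and mRNA24322 was still called without putamen or wM1 of bat 7. Without putamen of bat 6 its adjusted p was 0.129, and the 1 neighbour called was mRNA54276.

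Of the 74 neighbours of other lengths, 9 were called higher in striatum (12.2%) and 3 lower (4.05%), against the same 2.32% and 2.57%. At an unadjusted p under 0.05 there were 27, against 18.7% of all models. The members themselves are 95 of the models called higher by this contrast, from which nothing is read, since the rule used it. The neighbour called higher with the lowest adjusted p was mRNA10609, beside mRNA10608, at 2.42 to 5.27 CPM in striatum and 0.370 to 1.24 CPM in cortex (log2 difference 2.84 ± 0.37, SE, adjusted p = 0.00534). Also higher was mRNA44540, beside mRNA44539, at 9.05 to 14.9 CPM in striatum and 2.51 to 4.47 CPM in cortex (1.96 ± 0.27, SE, adjusted p = 0.0071).

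The 3 that were lower in striatum lie directly before a member. Beside mRNA2214, which had no cortical reads, mRNA2213 had 0.610 to 3.95 CPM in striatum and 41.1 to 63.9 CPM in cortex (-4.50 ± 0.35, SE, adjusted p = 0.000548). Beside the abundant mRNA52025, mRNA52024 had 0 to 0.278 CPM in striatum and 13.4 to 55.2 CPM in cortex (-7.90 ± 1.12, SE, adjusted p = 0.00755). With striatal values at or near 0, the size of this fold depends on the prior count of the fit. Beside mRNA19263, mRNA19262 had 77.5 to 102 CPM in striatum and 118 to 196 CPM in cortex (-0.77 ± 0.16, SE, adjusted p = 0.0348, and 0.0503 with the animal as a block). These neighbours were named after their values were seen. Without putamen of bat 7 more of the neighbours of other lengths were called, and without any other single library fewer were. The number called over all models moved in the same direction each time. Each such fit leaves 1 library in a region, so the counts are not given.

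The members formed 7 pairs of consecutive numbers, and 1 of these pairs was of like length. The best-ranked pair was mRNA59027 and mRNA59028, with 127, 140, 156 and 119 CPM and 32.3, 42.9, 38.1 and 36.9 CPM in caudate of bats 6 and 7 and putamen of bats 6 and 7. Next came mRNA24319 and mRNA24320, whose striatal values are given above. In this pair the putamen of bat 7 was highest in the first and the putamen of bat 6 in the second. In the third pair, mRNA38868 had 23.3, 33.5, 29.6 and 39.0 CPM and mRNA38869 had 7.78, 8.78, 5.91 and 15.9 CPM, both highest in the putamen of bat 7. The like-length pair was mRNA13194 (4946 bases) and mRNA13195 (4843 bases), with 35.6 to 111 CPM and 21.9 to 33.9 CPM in striatum.

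Some members at the top of the list had a neighbour of nearly the same length with higher values in cortex. Against mRNA17511 (36268 bases), mRNA17513 (36326 bases) had 4.78 and 8.10 CPM in caudate, no reads in putamen and 40.2 to 57.5 CPM in cortex. It was called lower in striatum (adjusted p = 7.4e-05). The fitted fold is not given, because both putamen libraries had no reads and it then depends on the prior count. The call held under each of the alternatives tried. Summed, the 2 models had 41.5 to 59.3 CPM in striatum and 40.2 to 57.5 CPM in cortex, which overlap almost fully. The member held 93.6% of the pair's striatal reads and none of its cortical reads.

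Another pair was mRNA2173 (208815 bases) and mRNA2172 (210301 bases). The second had 133 and 144 CPM in caudate, 79.2 and 105 CPM in putamen and 145 to 258 CPM in cortex, and was not called by edgeR (log2 difference -0.65 ± 0.22, SE, adjusted p = 0.162). Their sum was 186 ± 33.9 CPM (SD, n = 4) in striatum and 190 ± 40.2 CPM (SD, n = 8) in cortex. Of the members in runs, mRNA2173 had the like-length neighbours with the most cortical reads, at a mean of 190 CPM. Next were mRNA35545, whose neighbour mRNA35544 had a cortical mean of 20.1 CPM, and mRNA58996, whose neighbours together had 1.92 CPM. The member mRNA35545 itself had 317 to 432 CPM in striatum and 47.4 to 93.5 CPM in cortex, so its neighbour made less difference to it.

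In mRNA55455 (25940 bases) the like-length model lay 3 numbers away, as mRNA55452 (26031 bases), with 2.64 to 7.77 CPM in striatum and 3.27 to 25.5 CPM in cortex, which was not called by edgeR either (adjusted p = 0.145). The member held 87.6% of the pair's striatal reads and 1.59% of its cortical reads. The like-length model of mRNA39868 (37032 bases) was mRNA39863 (40330 bases), at 14.8 to 38.3 CPM in striatum and 5.27 to 13.0 CPM in cortex. It was itself called higher in striatum (1.40 ± 0.23, SE, adjusted p = 0.0160). The call was lost without caudate of bat 6 (adjusted p = 0.115), caudate of bat 7 (0.0742), ofM1 of bat 6 (0.0524), wM1 of bat 6 (0.0517) or PreM of bat 6 (0.0582). Summed, this pair had 63.7 to 103.7 CPM in striatum and 5.36 to 13.3 CPM in cortex, with no overlap.

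In 2 other members, libraries of the same region differed in which of the like-length models had the most reads. The striatal values of mRNA24320 were given above, and mRNA24321 (7384 bases, against 7406) had 41.2, 25.6, 0 and 79.0 CPM in the same order. The second was at 0 where the first was highest. Together with the like-length models around them they had 57.1, 71.2, 156 and 113 CPM in striatum and 1.16 to 2.92 CPM in cortex. In cortex, mRNA41838 (28522 bases) had no reads in 2A of bat 7 and ofM1 of bat 6 and 13.8 to 27.3 CPM in the other 6 libraries. Its like-length neighbour mRNA41840 (28489 bases) had 24.3 and 20.1 CPM in exactly those 2 libraries and no reads in the other 10.

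**Figure D4:**
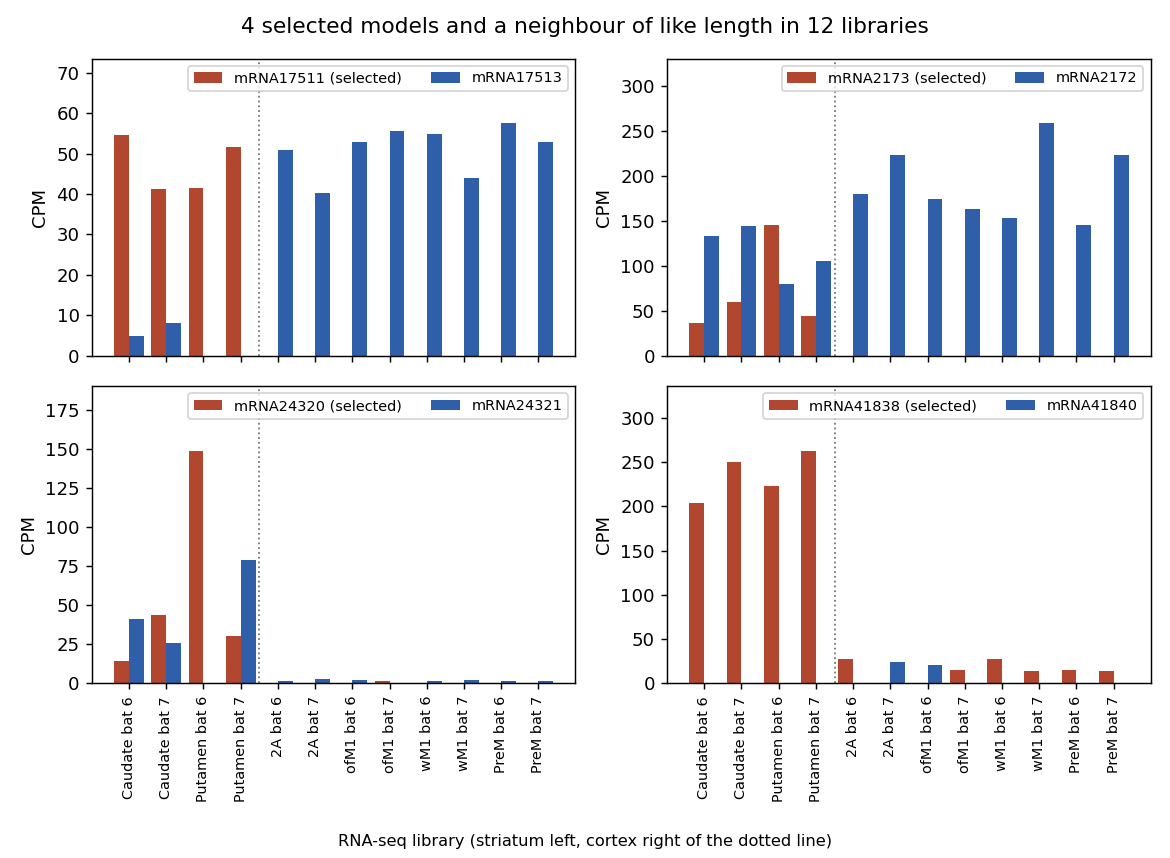
CPM of 4 selected models (red bars) and a neighbour of like length (blue bars) in the 12 libraries, with striatum left of the dotted line. In the upper panels the blue bars fill the cortical libraries where the red bars are at 0, and in the lower right panel the 2 cortical libraries without red bars are the ones with blue bars.

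Within 5 numbers, 45 members had at least 1 model of like length. After summing the member with them, 34 still had a score at or above that of the last member and 11 had a lower one. The score of 30 sums was within 10% of the member's own, that of 9 was less than 0.5 times it, and that of 2 was more than 1.5 times it. The sums below a score of 1, where the lowest striatal library is under the highest cortical one, were those of mRNA17511 (0.73, against 42.3 alone) and mRNA2173 (0.58, against 37.5 alone). The score of mRNA55455 went from 22.3 to 1.37 and that of mRNA39868 from 32.7 to 4.51. The other direction was seen in mRNA24320, from 6.04 to 14.8, and in mRNA13195, from 3.15 to 4.93. Counting also the members that have no such model, 89 of the 100 were at or above the score of the last member. Ranked on sums of runs of consecutive numbers over all models, 96 of the members were in the highest 100.

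**Figure D5:**
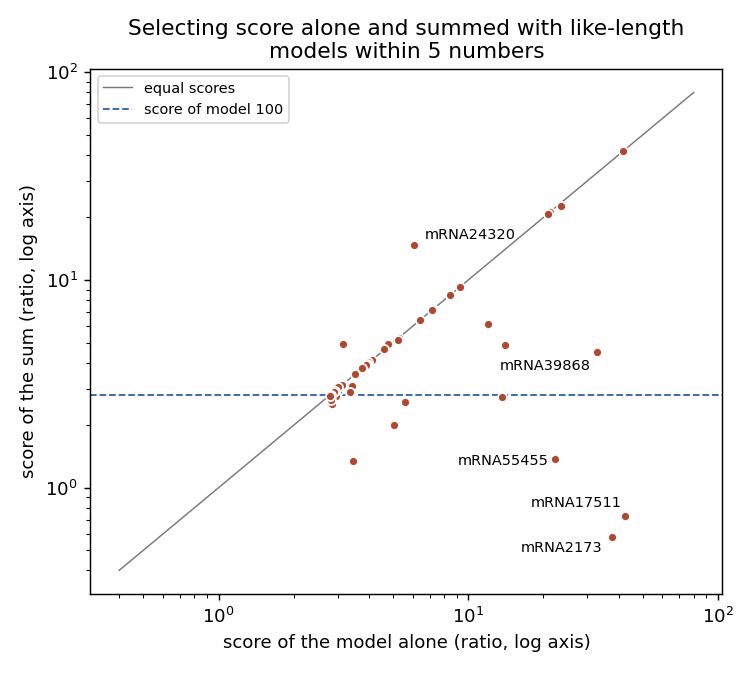
Selecting score of 45 members alone (horizontal, log axis) and after summing with the like-length models within 5 numbers (vertical, log axis), with the line of equal scores and the score of the last member (dashed). Most points lie on the line, and mRNA2173, mRNA17511, mRNA55455 and mRNA39868 lie far below it.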

How the data were processed

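RNA-seq libraries were made by poly(A) selection from flash-frozen tissue, per the labels. Salmon 1.5.2 is named in the submitters' processing notes. The sources used here do not give the transcript set, genome build or settings. The authors deposited, per library, estimated counts (28.2% of them not whole numbers) and TPM, which is scaled for length and keeps no depth. Estimated counts were rounded to whole numbers for the tests. CPM were made from the unrounded counts and the column totals. The deposited ATAC-seq peak lists were not used here.

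Models were kept with edgeR's filterByExpr, which left 28713 and at least 99.0% of each library's reads. edgeR 4.0.16 (R 4.3.3) with TMM scaling fitted 1 term per region to all 12 libraries (glmQLFit, glmQLFTest, 2-sided), with Benjamini-Hochberg adjustment at 0.05. For the animals, an animal term was added to the regions. The SE is the log2 difference divided by the square root of F. Nothing in the labels says that libraries were repeated, so p-values measure the spread between 2 animals. The fits were tested on simulated data. Alternatives were DESeq2 1.42.0, RLE scaling, no filter, the animal as a block, only the regions compared, each library left out, and other forms of the score.

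The labels name the animal of each library, so the fit with a block pairs the regions of 1 animal. The differences between bats 7 and 6 correlated between regions, across models, at -0.38 to 0.37 (median 0.070, 15 pairs of regions, 7 above 0.1).

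The members, lists and rules were chosen with earlier results of these data known. Named were the 8 highest-ranked models, 2 on each side of the threshold, the 2 largest differences per comparison among members at 1 CPM or more with the same direction in both animals (all 6 regions for the animals), the 3 best-ranked of the equally long runs of consecutive members, the 3 members with the most cortical reads in like-length neighbours, and the longest and shortest. Others were named after their values were seen. Marker lists for the regions were not run, because no model has a name.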

Additional observations from a re-analysis of the deposited data

Results flagged for a closer look

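For the 8 highest-ranked models and the members' summed share, 14 sets of libraries were screened for a value far from the rest, and 1 was found. In mRNA22377, the 2A library of bat 6 had 12.5 CPM, while the next of the 8 cortical libraries, PreM of bat 7, had 6.08 CPM. Chance marks about 1 in 20 sets of values drawn alike. The 8 cortical libraries come from different areas, and the highest cortical value entered the score, so that share need not hold here.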

How the results depend on the processing

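With DESeq2, the members called were 4 for caudate against putamen, 6 for 2A against motor cortex, 1 for PreM against primary motor cortex, 1 for ofM1 against wM1 and 3 for bat 7 against bat 6, where edgeR called 0 each. Of all models DESeq2 called 8.77%, 5.69%, 3.03%, 3.06% and 6.71% in these comparisons. DESeq2 also called 3 of 99 sums holding a member for caudate against putamen, against 5.04% of all sums. For striatum against cortex it called 5 of 13 like-length neighbours and 28 of 74 neighbours of other lengths, against 21.2% of all models. With the replicate block (the animal), 0 members were called in each comparison of regions, 0 like-length neighbours (1 without it) and 11 neighbours of other lengths (12 without it). Like-length neighbours called were 0 of 17 with no low-count filter and 0 of 3 when lengths had to be within 2%. Within 5 numbers they were 3 of 31, with 2 higher (6.45%) and 1 lower (3.23%) in striatum, against 2.32% and 2.57% of all models. Leaving out each library in turn gave 0 to 1 members for 2A against motor cortex and 0 for the other comparisons, 0 to 1 like-length neighbours, 1 to 19 neighbours of other lengths, and 77 to 99 of the members kept in the highest 100. Without putamen and 2A of bat 7 together, an alternative added after seeing the data, 21 neighbours of other lengths were called. On RLE-scaled library sizes, also added after seeing the data, 11 members in place of 5 had both putamen libraries above both caudate libraries. The highest 100 kept 32 members with means in place of the lowest and highest library. The other forms of the score kept 73 (deposited TPM) to 100 (no length limit). The cause of these changes was not tested. For striatum against cortex, the alternative of only the regions compared uses all libraries and was not run. With 2 libraries per region, a log2 difference of 1.33 without overlap (mRNA37350, caudate against putamen) was not called by edgeR. Members that were not called are therefore not shown to be equal between regions.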

Other observations

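In 4 further members, chosen after their values were seen, a like-length model within 5 numbers brought the sum below the score of the last member. Beside mRNA59027, mRNA59025 had no reads in 6 libraries. Its highest values were 55.5 CPM in putamen of bat 6, 37.0 CPM in wM1 of bat 7 and 30.3 CPM in 2A of bat 7. In the putamen its reads were in bat 6 only, and in every other region they were in bat 7 only. Why the putamen differed was not tested. The sum scored 2.72, against 13.7 for the member alone. Beside mRNA38036, mRNA38039 had 38.7 to 50.1 CPM in striatum and 27.6 to 38.3 CPM in cortex, and the sum of 3 models scored 2.60, against 5.57. Beside mRNA11404, mRNA11408 had 6.84 to 11.1 CPM in striatum and 2.20 to 8.10 CPM in cortex, and the sum scored 2.01, against 5.06. Beside mRNA38869, mRNA38872 had no reads in putamen and 0 to 3.14 CPM in cortex, and the sum scored 1.35, against 3.47.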
